A study of Mus musculus with 14 samples.

Results

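The B7 and CD28 family is a set of 10 mouse genes for costimulatory receptors of T cells and their ligands on antigen-presenting and stromal cells, described here in spleen cells enriched for follicular dendritic cells (FDC-E) and in spleen cells depleted of them (FDC-D). Members were the probe sets whose single gene symbol in the array annotation was Cd28, Ctla4, Icos, Pdcd1, Cd80, Cd86, Icosl, Cd274, Pdcd1lg2 or Cd276, whatever their values. They came to 14 probe sets for 9 of the 10 genes, out of 36701 probe sets measured, with 10 on array set A, 4 on array set B and 0 on array set C. Pdcd1lg2 had no probe set of its own among them and is not analysed here. The list of genes, like the marker lists used below, was chosen with earlier results of these data known. RNA of isolated primary splenocytes of both fractions was hybridised to 14 oligonucleotide arrays, with 3 FDC-E and 2 FDC-D arrays on each of sets A and C, and 2 of each fraction on set B. The labels used here name no strain, age, number of animals or isolation method. They do not say that samples of a fraction came from separate animals, so a p-value covers only the spread among these samples, which can be technical.

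T cells need a signal from costimulatory receptors besides that of the T cell receptor. CD28 gives this signal on binding the B7 ligands CD80 and CD86, and CTLA-4 binds the same ligands more tightly and restrains the response. ICOS, induced on activated T cells and abundant on follicular helper T cells, binds ICOS ligand on B cells and other cells, an exchange that the germinal centre reaction needs. PD-1, the product of Pdcd1, is an inhibitory receptor whose ligands are PD-L1 (Cd274) and PD-L2 (Pdcd1lg2). B7-H3, the product of Cd276, is a B7 family protein found on many non-lymphoid cells. Follicular dendritic cells are stromal cells that retain antigen within the follicles of B cells.

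Most genes of the list of FDC markers were higher on the FDC-E arrays. Of 9 tested FDC markers 8 were higher and 0 lower in FDC-E. Cxcl13 and Coch averaged 1358 and 973 in FDC-E, against 32.4 and 14.4 in FDC-D. Those FDC-D means lie under the 20th percentile of the FDC-D arrays (84.2 and 86.1 on set A), so they may not be signal. The ratio of means, FDC-E over FDC-D, was only 1.29 for Madcam1 and 1.20 for Ltbr, and Fcgr2b did not pass (0.93). Cr2 and Fcer2a, counted in the B cell list only, were lower, with ratios of 0.73 and 0.33. Markers of other cells moved as well, with 8 of 8 endothelial, 6 of 7 fibroblast and 9 of 10 macrophage genes higher in FDC-E. Values are linear intensities as deposited, 1 per probe set and array, whose background correction and scaling are not stated. Median intensities on set A were 264.9 to 279 in FDC-E and 244 and 250.9 in FDC-D, and on set B 207 and 209 in FDC-E and 199.6 and 202 in FDC-D, so that each FDC-E array was slightly brighter as a whole. FDC-E replicate 2 on set A lacked a value for 893 probe sets, none of them a member.

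A difference is given as a log2 fold change, FDC-E over FDC-D, of the intensity plus a pseudocount of 88.6 on set A and 81.3 on set B, with its standard error (SE). It understates the change of dim probe sets, so the ratio of mean intensities is given beside it for each member that passed, and for other named genes where that ratio was over 1.5 times the fold on the pseudocount scale. A probe set was tested with limma if 2 or more arrays had it above their own 40th percentile. Arrays of 1 fraction alone could meet this, for list genes as for members, which favours a higher level in that fraction. A tested probe set passed at a Benjamini-Hochberg adjusted p under 0.05 over all tested probe sets of its array set. On set A 41.0% of 7889 tested probe sets passed (23.1% higher and 17.9% lower in FDC-E), and on set B 36.4% of 7792 did (19.4% higher and 17.0% lower). These large shares are the background for every member. Their balance depends on the scaling. After quantile normalization 18.2% were higher and 25.9% lower on set A, and 17.6% and 20.2% on set B. With arrays scaled to the median array the shares were 18.5% and 25.0% on set A, and 16.7% and 21.1% on set B.

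RNA of the receptor genes Cd28 and Ctla4 was several-fold lower in the FDC-E fraction. Cd28, the gene of the main costimulatory receptor of T cells, had intensities of 63.4, 73.4 and 55.8 on the FDC-E arrays, against 555 and 540.3 on the FDC-D arrays (probe set 102237_at, set A). All 3 FDC-E values lay far below both FDC-D values. They stood between percentiles 11.2 and 15.2 of their arrays, whereas the FDC-D values stood at percentiles 73.1 and 74.1. Mean intensity was 64.2 ± 8.82 in FDC-E (SD, n = 3) and 548 ± 10.4 in FDC-D (SD, n = 2), which is 8.53-fold lower in FDC-E by the ratio of means. The log2 fold change was -2.06 with an SE of 0.07 (limma, adjusted p = 3.29e-07). Since the FDC-E values are near the low end of the arrays, where intensity is least sure to be signal, the size of the ratio is less certain than its direction. In such bulk fractions, fewer cells of a type and less RNA per cell cannot be told apart.

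Ctla4, the gene of the inhibitory receptor that shares the ligands of CD28, had intensities of 149, 171 and 161 on the FDC-E arrays, against 634 and 667 on the FDC-D arrays (97718_at, set A). The groups were well apart, and no FDC-E array reached the 40th percentile. Mean intensity was 160.2 ± 11 in FDC-E (SD, n = 3) and 651 ± 23.3 in FDC-D (SD, n = 2), 4.06-fold lower in FDC-E by the ratio of means, with a log2 fold change of -1.57 and an SE of 0.07 (limma, adjusted p = 1.01e-06). Both Cd28 and Ctla4 passed the filter on dim probe sets through the FDC-D arrays alone, and whether their fold changes differ is not shown here.

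Icos, the gene of the inducible costimulator, was also lower in FDC-E, by less. On set A its intensities were 152, 160.1 and 150.4 in FDC-E, against 238 and 278 in FDC-D (98282_at). The ratio of means was 1.67-fold lower in FDC-E, and the log2 fold change was -0.51 with an SE of 0.07 (limma, adjusted p = 0.000807). On set B another probe set gave 844 and 858 in FDC-E, against 1075 and 1088 in FDC-D (115165_at), 1.27-fold lower in FDC-E by the ratio of means, with a log2 fold change of -0.32 and an SE of 0.06 (limma, adjusted p = 0.00264). The groups did not overlap on either array set, as was so for 63.3% of tested probe sets on set A and 67.7% on set B. The set B probe set stood at percentiles 91.7 and 91.8 in FDC-E, against 95.4 and 95.6 in FDC-D. It was thus bright in both fractions. The set A probe set stood lower, at percentiles 32.4 to 33.7 in FDC-E, against 49.1 and 53.0 in FDC-D. The level of Icos in FDC-E thus depends on the probe set. The 2 probe sets gave the same direction, and whether the fold change of Icos differs from that of Cd28 was not tested. The samples of set B carry the same numbers as those of set A, and the array sets are no independent replicates of each other.

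Pdcd1, the gene of the inhibitory receptor PD-1, had intensities of 155.9, 119 and 135 in FDC-E, against 134 and 141 in FDC-D (98836_at, set A). The FDC-D values lay inside the FDC-E range. No array of either fraction passed the filter on dim probe sets, and with no filter the log2 fold change was -0.01 with a 95% interval of -0.19 to 0.17 (limma, adjusted p = 0.969). All values lay between percentiles 26.1 and 33.1 of their arrays, where no detection call tells signal from background, so that a difference in Pdcd1 was not detectable here.

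**Figure D1:**
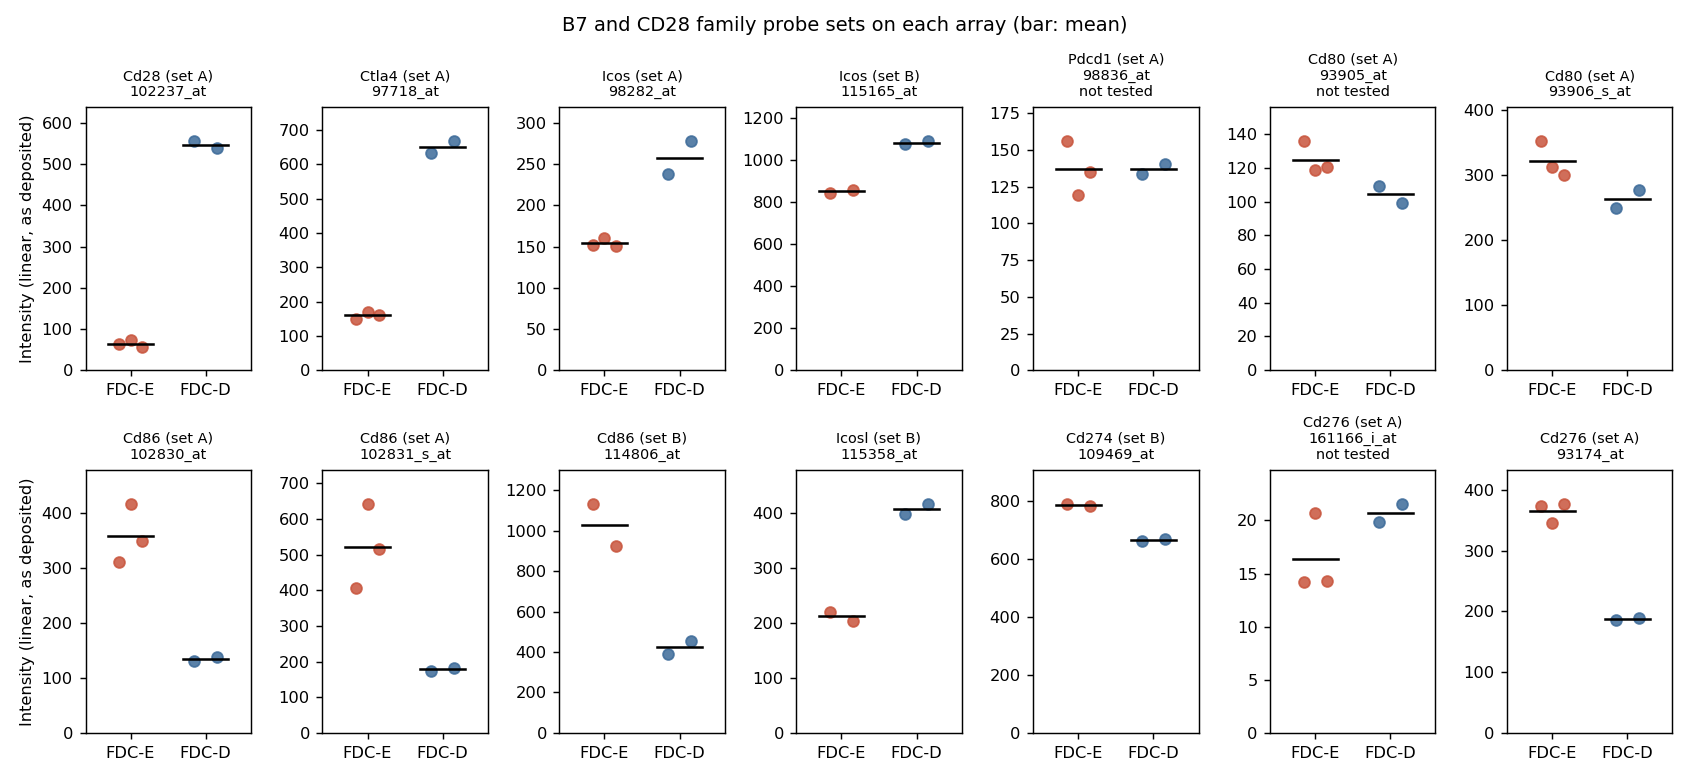
Linear intensity of each of the 14 member probe sets on every array, with FDC-E left and FDC-D right in each panel, points for arrays and a bar for the mean; each panel has its own axis from 0. Cd28, Ctla4, Icos and Icosl were lower in FDC-E, Cd86 and Cd276 (93174_at) were higher, and Pdcd1 overlapped.

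Among the ligands, Cd86 had the largest log2 fold change and was higher in FDC-E at all 3 of its probe sets. Cd86 encodes B7-2, a ligand of CD28 and CTLA-4 that dendritic cells, macrophages and activated B cells carry. Of its probe sets, 102831_s_at carries the suffix of sets whose probes can match more than 1 transcript, as does 93906_s_at of Cd80. On set A, 102830_at had 312, 417 and 349 in FDC-E, against 131 and 138 in FDC-D, and 102831_s_at had 407, 641 and 515 in FDC-E, against 174 and 183 in FDC-D. On set B, 114806_at had 1131 and 922 in FDC-E, against 392 and 455 in FDC-D. Every FDC-E array was at least 2.03 times as bright as the brightest FDC-D array of its set, and FDC-E replicate 2 was the highest at each probe set. The ratio of means was 2.67, 2.91 and 2.42. The log2 fold changes were 1 with an SE of 0.1 (limma, adjusted p = 9.34e-05), 1.17 with an SE of 0.14 (limma, adjusted p = 0.000285) and 1.13 with an SE of 0.1 (limma, adjusted p = 9.74e-06).

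Cd80, which encodes B7-1, the other ligand of CD28 and CTLA-4, did not pass. At 93906_s_at its intensities were 351, 312 and 300.1 in FDC-E, against 249 and 278 in FDC-D. The log2 fold change was 0.22 with a 95% interval of 0.03 to 0.4 before adjustment (limma, adjusted p = 0.0622). Its dimmer probe set 93905_at had 136, 119 and 121 in FDC-E, against 109 and 99.4 in FDC-D, was below the filter on every array, and had a log2 fold change of 0.15 with no filter (limma, adjusted p = 0.13). Every FDC-E array was above both FDC-D arrays at both probe sets, by a small margin. Such a separation was common, as the groups did not overlap at 63.3% of tested probe sets on set A and 67.7% on set B. The interval allows a Cd80 difference of up to 0.4 on the log2 scale, so equal levels are not shown either. The difference between the log2 fold changes of Cd86 (102831_s_at) and Cd80 (93906_s_at) was 0.95, with an exact two-sided permutation p = 0.2 over arrays. Since 3 against 2 arrays cannot give a p below 0.1, this test cannot show whether the genes differ.

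Icosl, the gene of ICOS ligand, which B cells express at rest, was lower in FDC-E. It had intensities of 220 and 203 in FDC-E, against 398 and 416 in FDC-D (115358_at, set B). Both FDC-E values were about at the middle of their arrays (percentiles 52.3 and 49.2), and the FDC-D values stood at percentiles 74.6 and 75.6. Mean intensity was 212 ± 11.8 in FDC-E (SD, n = 2) and 407 ± 12.3 in FDC-D (SD, n = 2), 1.92-fold lower in FDC-E by the ratio of means, with a log2 fold change of -0.74 and an SE of 0.06 (limma, adjusted p = 7.12e-06). The receptor Icos and its ligand Icosl were both lower in FDC-E, while the shared ligand Cd86 and its receptors Cd28 and Ctla4 went opposite ways.

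Cd274, the gene of PD-L1, was slightly higher in FDC-E. Its intensities were 789 and 784 in FDC-E, against 663 and 669 in FDC-D (109469_at, set B). The SD between arrays was 3.99 in FDC-E and 3.98 in FDC-D (n = 2 each), and the ratio of means was 1.18. The log2 fold change was 0.22 with an SE of 0.06 (limma, adjusted p = 0.021). This call was lost with FDC-D replicate 1 or 2 left out (adjusted p = 0.104 and 0.0921) and under quantile normalization (0.0569) or scaling to the median array (0.0558). The values were high on the arrays of both fractions, at percentiles 90.5 and 90.4 in FDC-E and 87.7 and 88 in FDC-D.

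Cd276, the gene of B7-H3, was higher in FDC-E at 1 of its 2 probe sets. At 93174_at its intensities were 374, 346 and 376 in FDC-E, against 186 and 189.7 in FDC-D (set A). Mean intensity was 365 ± 17 in FDC-E (SD, n = 3) and 188 ± 2.27 in FDC-D (SD, n = 2), a ratio of 1.94, and the log2 fold change was 0.71 with an SE of 0.07 (limma, adjusted p = 6.61e-05). The other probe set, 161166_i_at, had 14.2, 20.7 and 14.3 in FDC-E, against 19.9 and 21.5 in FDC-D. Those values overlap and lie at or below percentile 3.61 of every array, so this probe set gives no measurement of Cd276 in either fraction.

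The sequences around the start sites of Ctla4, Icosl and Cd276 are shown because these were the members with the largest differences among the 7 that matched the promoter table of RefSeq (build GRCm38.p6). Each runs 5′ to 3′ on the strand of the gene, from 250 bases before to 50 bases after the annotated start, with motif matches in capitals. Ctla4 lies at chr1:60908775-60909074 on the plus strand, Icosl at chr10:78069118-78069417 on the plus strand and Cd276 at chr9:58554984-58555283 on the minus strand.
Ctla4: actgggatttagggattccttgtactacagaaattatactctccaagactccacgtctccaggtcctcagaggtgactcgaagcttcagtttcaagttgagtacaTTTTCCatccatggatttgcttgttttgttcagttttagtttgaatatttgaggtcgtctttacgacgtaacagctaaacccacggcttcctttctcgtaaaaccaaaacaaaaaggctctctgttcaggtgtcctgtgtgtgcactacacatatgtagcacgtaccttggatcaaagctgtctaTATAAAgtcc
Icosl: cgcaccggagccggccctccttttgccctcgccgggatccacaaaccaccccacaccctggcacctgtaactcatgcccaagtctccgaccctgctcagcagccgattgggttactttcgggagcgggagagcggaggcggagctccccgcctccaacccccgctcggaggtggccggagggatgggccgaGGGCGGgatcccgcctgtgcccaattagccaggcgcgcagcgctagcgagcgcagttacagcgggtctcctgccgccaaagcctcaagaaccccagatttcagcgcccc
Cd276: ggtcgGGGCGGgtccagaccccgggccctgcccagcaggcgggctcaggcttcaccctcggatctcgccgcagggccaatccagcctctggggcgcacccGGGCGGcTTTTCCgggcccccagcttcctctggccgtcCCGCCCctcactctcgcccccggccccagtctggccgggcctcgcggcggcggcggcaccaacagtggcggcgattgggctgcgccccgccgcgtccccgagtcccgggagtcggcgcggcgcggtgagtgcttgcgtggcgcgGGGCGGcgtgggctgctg
A search of both strands took 5 motifs, which were the NFAT core GGAAAA, the AP-1 site TGANTCA, the STAT GAS-type site TTCNNNGAA, the TATA box TATAAA and the GC box GGGCGG. The window of Ctla4 held 1 NFAT core on the minus strand at bases 106 to 111 and the letters of a TATA box at bases 291 to 296, which is past the start site. That of Icosl held 1 GC box, at bases 192 to 197. That of Cd276 held 4 GC boxes and 1 NFAT core, on the minus strand at bases 108 to 113. No 2 matches overlapped. Of 32851 promoter windows of the same length, 23.4% held the NFAT core, 13.6% the TATA letters and 35.7% the GC box, so that these matches are common. The share of G and C was 42% for Ctla4, 68% for Icosl and 78.3% for Cd276, against a median of 52.7% over all windows.

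**Figure D2:**
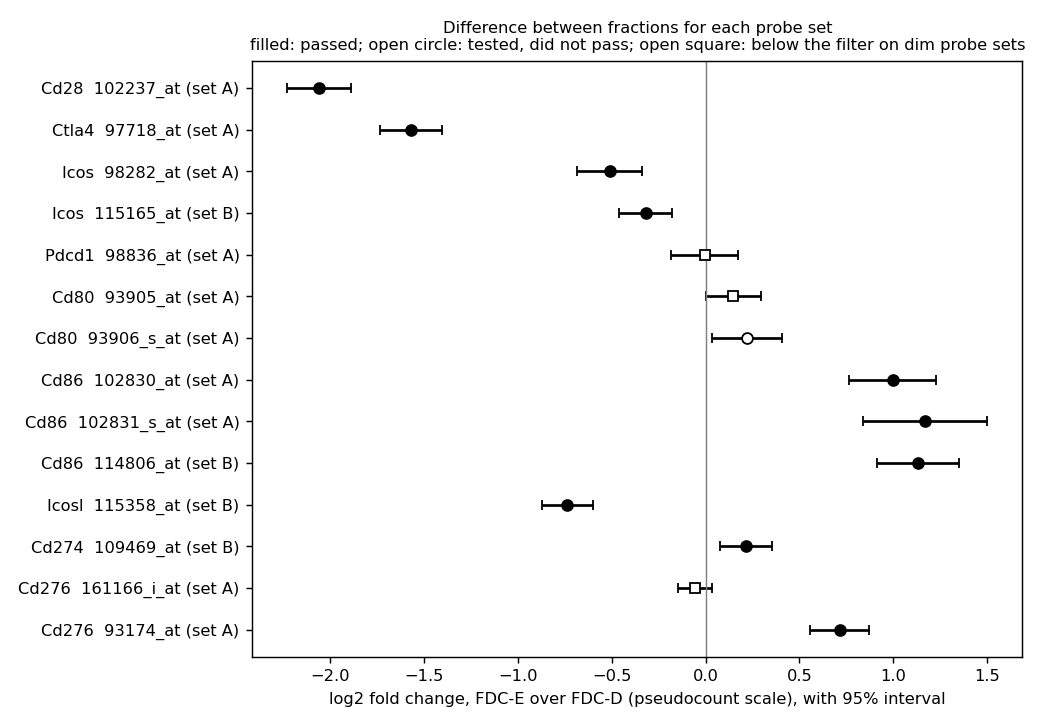
Log2 fold change of FDC-E over FDC-D for the 14 member probe sets with the 95% interval of the limma fit. Filled circles passed, the open circle (Cd80, 0.22) was tested and did not pass, and open squares were below the filter on dim probe sets.

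Counted by gene, with the brightest tested probe set standing for each, 8 of the 10 members were tested. In FDC-E 3 were higher (Cd86, Cd276 and Cd274), 4 were lower (Cd28, Ctla4, Icos and Icosl) and 1 did not pass (Cd80). Over all 12273 genes counted in the same way 19.3% were higher and 14.5% lower, 33.8% in all. The members' counts are not support for a family-wide difference, since 4 of their 11 tested probe sets passed the filter through the arrays of 1 fraction alone (Cd28, Ctla4 and Icos on set A through FDC-D, and Cd86 102830_at through FDC-E). By role, 3 of 3 tested receptor genes were lower, while the receptor gene Pdcd1 was below the filter and had -0.01 with no filter. Of 5 tested ligand genes 3 were higher, 1 was lower and 1 did not pass. Since Cd28 and Ctla4 were tested through FDC-D alone, these counts show no contrast between receptors and ligands. In the gene table of build GRCm38.p6 Cd28, Ctla4 and Icos follow one another in this order along chromosome 1, and Cd80 and Cd86 both lie on chromosome 16. The neighbours Cd28, Ctla4 and Icos shared a direction and ranged in log2 fold change from -2.06 to -0.32.

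The tested receptor genes Cd28, Ctla4 and Icos moved in the same direction as markers of T cells, and so did markers of B cells, NK cells and neutrophils. Of 12 tested genes of the T cell list 0 were higher and 11 were lower in FDC-E, with a median log2 fold change of -1.39. On set A Cd3d, Cd3g, Cd247, Cd8b1 and Il7r averaged 53.5, 44.1, 147, 81.8 and 102 in FDC-E. Those means lay under the 40th percentile of every FDC-E array (191 to 199). These genes passed the filter through FDC-D alone, which favoured their direction, as with Cd28 and Ctla4. Cd3d and Il7r had log2 fold changes of -2.82 and -2.76, or 17.1-fold and 11.8-fold lower in FDC-E by the ratio of means. The FDC-E mean of Cd3d lay under the 20th percentile of every FDC-E array (88.5 to 93.8), so the size of its ratio is uncertain. The log2 fold changes of Cd4, Cd8a and Lat were -0.21, -0.41 and -0.10, of which that of Lat did not pass. The summed level of the 12 genes was 3702 to 3954 in FDC-E and 9849 to 10102 in FDC-D. No marker was at the floor of 0.001 in any array, but at most 5 probe sets of any array were. Cd28 and Ctla4 thus lay within the range of the T cell markers, and Icos near the end with small differences. Of the list for regulatory and follicular helper T cells, the kinds of T cell that carry much CTLA-4 and ICOS, 2 of 6 genes were tested. Sh2d1a, which passed the filter through FDC-D alone, was lower with a log2 fold change of -1 (3.71-fold by the ratio of means). Its FDC-E mean of 51.7 also lay under the 20th percentile of every FDC-E array, so the size of that ratio is uncertain. Maf, which macrophages also express, was higher with a log2 fold change of 1.34. Of the NK cell list 3 of 3 tested genes were lower, with a median log2 fold change of -2.26 and a summed level of 419 to 578 in FDC-E and 2468 to 2848 in FDC-D. Klra7 of that list also passed the filter through FDC-D alone. Of the neutrophil list 3 of 4 tested genes were lower and 0 higher, with a median of -0.91. The summed level of the 4 was 1309 to 1961 in FDC-E and 3843 to 4656 in FDC-D. Ltf of that list averaged 161 in FDC-E and also passed the filter through FDC-D alone. The FDC-E means of S100a8 (159) and of Gzma of the NK cell list (162) also lay under the 40th percentile of every FDC-E array. The lower level of Cd28, Ctla4 and Icos thus goes with that of several lists, and the part of any cell type in it was not tested.

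The ligands moved with different lists. Of 10 tested macrophage genes 9 were higher and 0 lower in FDC-E, with a median log2 fold change of 0.76, against 1.13 for Cd86. Csf1r, counted as higher by its brightest probe set, passed as lower at its other tested probe set. The summed level of the 9 on set A was 16720 to 19345 in FDC-E and 6566 to 8138 in FDC-D. Of 7 tested dendritic cell genes 1 was higher (Zbtb46), 3 were lower (Flt3, Ccr7 and Batf3) and 3 did not pass, with a summed level of the 5 on set A of 2607 to 3046 in FDC-E and 3886 to 4463 in FDC-D. Of 9 tested B cell genes 0 were higher and 8 were lower, with a median of -1.63, against -0.74 for Icosl on set B. The summed level of the 8 B cell genes on set A was 7161 to 9254 in FDC-E and 23766 to 23862 in FDC-D. Beside Cd276 stood the endothelial list, with a median of 3.68 and a summed level of its 7 genes on set A of 16400 to 18510 in FDC-E and 1450 to 1493 in FDC-D. The fibroblast list had a median of 1.84, with a summed level of its 6 genes on set A of 4906 to 5577 in FDC-E and 1715 to 1749 in FDC-D, and the FDC list had a median of 2.35, with 20922 to 24283 in FDC-E and 4785 to 5212 in FDC-D. Of the platelet list 3 of 3 tested genes were higher, with a median of 1.46. No gene of these lists was at the floor in any array, but few probe sets of any kind were. In FDC-D Coch, Postn, Cxcl13, Tie1 and Tek, among others, averaged 14.4, 21.2, 32.4, 52.7 and 56.0 on set A. Those means lie under the 20th percentile of both FDC-D arrays (84.2 and 86.1). These genes passed the filter through FDC-E alone, and the sizes of their differences are uncertain. The part of each cell type in the ligand differences was not tested.

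**Figure D3:**
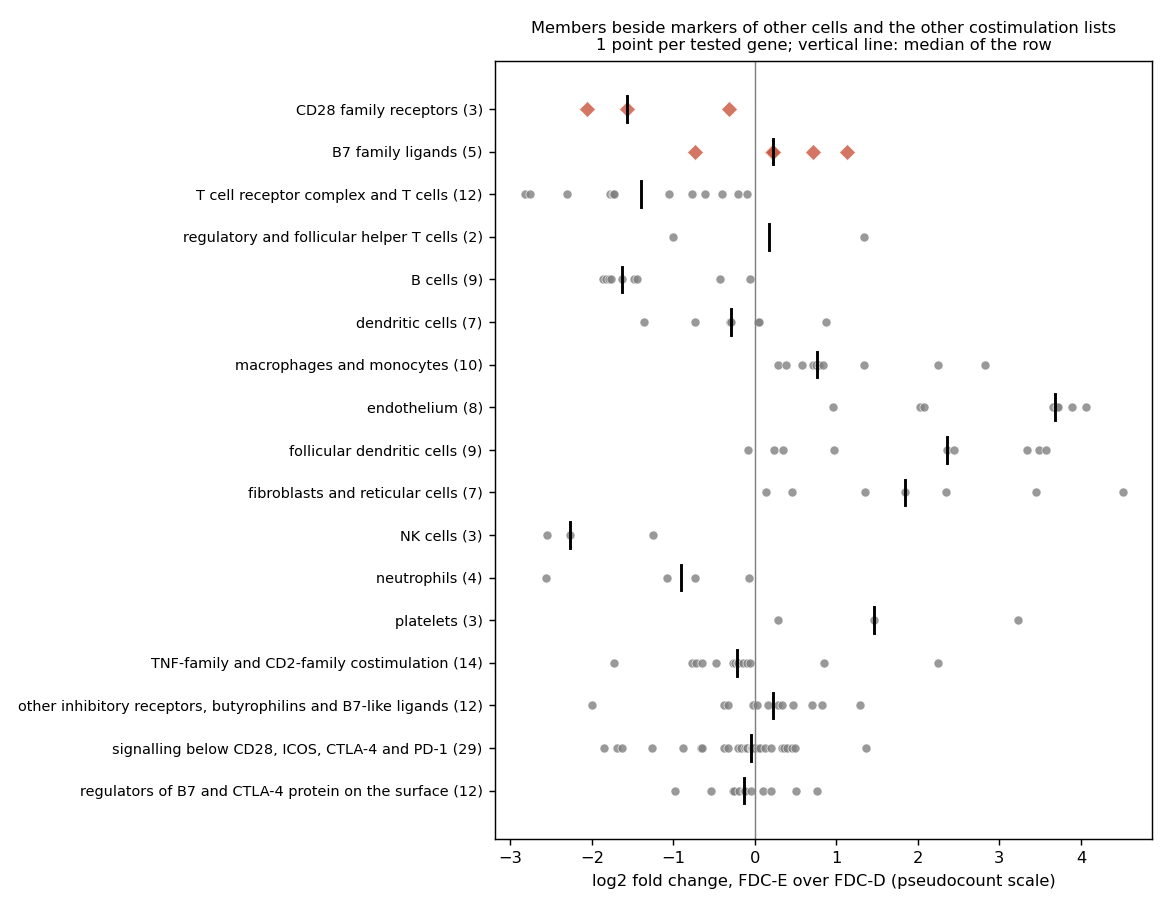
Log2 fold change of FDC-E over FDC-D for each tested gene of the family, the marker lists and the other costimulation lists, with the number of genes in brackets and the median of each row as a vertical line. The receptors Cd28 (-2.06), Ctla4 (-1.57) and Icos (-0.32) lie on the side of several medians. These are those of T cells (-1.39), B cells (-1.63), NK cells (-2.26), neutrophils (-0.91) and dendritic cells (-0.29). Cd86 (1.13) lies on the side of macrophages (0.76), endothelium (3.68), FDC (2.35), fibroblasts (1.84) and platelets (1.46). The 2 genes of the regulatory and follicular helper T cell list lie on opposite sides.

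Costimulatory genes outside the family were mixed. Of 67 tested genes in 4 lists, 15 were higher (22.4%) and 22 were lower (32.8%) in FDC-E, against 19.3% and 14.5% of all genes tested, with a median log2 fold change of -0.10 against 0.02. After quantile normalization 13 were higher (19.4%) and 28 lower (41.8%), against 16.3% and 18.8% of all genes, and with scaling to the median array 12 were higher (17.9%) and 29 lower (43.3%), against 15.7% and 19.1%. The list genes are not independent of one another, and nothing particular to them is drawn from these shares. In the list of TNF-family and CD2-family costimulation 2 of 14 genes were higher, 9 were lower and 3 did not pass. Icam1, the adhesion ligand of the integrin LFA-1, was higher with a log2 fold change of 2.24 (1613 ± 144 in FDC-E, n = 3, and 271 ± 15.7 in FDC-D, n = 2, both SD), and so was Tnfsf9, the ligand of 4-1BB, with 0.85. Cd2, an adhesion receptor of T and NK cells, was lower with -1.73, its ligand Cd48 with -0.64, the SLAM family gene Ly9 with -0.77 and the TNF receptor gene Cd27 with -0.72. The LFA-1 chains Itgb2 and Itgal had -0.48 and -0.27, and the call of Itgal was lost with any of FDC-E replicates 2 and 3 or FDC-D replicates 1 and 2 left out (adjusted p = 0.0565 to 0.292) and in the blocked fit by replicate number (0.110).

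Among other inhibitory receptors and their ligands 6 of 12 genes were higher, 3 were lower and 3 did not pass. Btla, an inhibitory receptor of B and T cells, was lower with a log2 fold change of -2.00 (405 ± 45.8 in FDC-E and 1857 ± 86 in FDC-D, SD, n = 2 each). Cd96, a receptor of T and NK cells, was lower with -0.33, whereas Pvr, the gene of its ligand, and the related Nectin2 were higher with 0.34 and 0.82. Cd200, whose product restrains myeloid cells, was higher with 1.29, or 4.97-fold by the ratio of means. Its intensities were 253 ± 23.4 in FDC-E (SD, n = 3) and 50.8 ± 1.59 in FDC-D (SD, n = 2). The FDC-D mean lay under the 20th percentile of those arrays (84.2 and 86.1), so the size of this ratio is uncertain. Sirpa, a myeloid inhibitory receptor, was higher with 0.71, and its ligand Cd47 was lower with -0.38. Lgals9 and Ceacam1 were higher with 0.47 and 0.29. Of these calls, that of Cd96 was lost without FDC-D replicate 1 (adjusted p = 0.197), those of Cd47 and Lgals9 without FDC-D replicate 2 (0.266 and 0.0814), and that of Ceacam1 without FDC-E replicate 2 or FDC-D replicate 1 or 2 (0.0588, 0.218 and 0.0719) and under quantile normalization or scaling to the median array (0.0889 and 0.0803).

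Of 29 tested genes that signal below the receptors 4 were higher, 8 were lower and 17 did not pass. Gsk3b, counted as lower by its brightest probe set, passed as higher at another. Pik3cd, the leukocyte catalytic subunit of phosphoinositide 3-kinase, which CD28 and ICOS recruit, was lower with a log2 fold change of -1.85 (513 ± 20.6 in FDC-E, n = 3, and 2085 ± 106 in FDC-D, n = 2, both SD). Prkcq, the protein kinase C theta gene of T cells, was lower with -1.70 (6.01-fold by the ratio of means). Its FDC-E mean of 71.8 lay under the 20th percentile of every FDC-E array of set A (88.5 to 93.8). Prkcq passed the filter through FDC-D alone, and the size of its ratio is uncertain. The phosphatase gene Ptpn6 was lower with -1.63, Rasgrp1, a Ras activator of T cells, with -1.27, Cbl with -0.88 and Nfatc2 with -0.66. Ctnnb1, the beta-catenin gene, was higher with 1.37, Akt1 with 0.49 and Ptpn11, the phosphatase gene that PD-1 recruits, with 0.46. Bcl2l1, a survival gene that CD28 induces, was higher with 0.35, a call that was lost under either other scaling (adjusted p = 0.114 and 0.136), without FDC-E replicate 2 or 3 (0.0962 and 0.105) and without FDC-D replicate 2, where the log2 fold change was 0.15 (0.425). That call was also lost in the blocked fit (adjusted p = 0.0606), with no filter (0.0526) and with adjustment over all 3 array sets (0.0551). The log2 fold changes of Zap70, Lat, Vav1 and Grb2 were 0.04, -0.10, -0.10 and -0.17, and none of these passed.

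Of 12 tested genes in the list of regulators of B7 and CTLA-4 protein at the surface, 3 were higher, 2 were lower and 7 did not pass. Under quantile normalization or scaling to the median array 2 were higher and 6 lower. The list is broad and holds genes with other main roles, such as Ciita. Irf1, an interferon-induced factor that raises Cd274 transcription, was higher with a log2 fold change of 0.76, but not without FDC-D replicate 2 (adjusted p = 0.0505). Ap2m1, a subunit of the clathrin adaptor that takes CTLA-4 in from the surface, was higher with 0.50. Cmtm4 was higher with 0.19, a call that was lost under either other scaling (adjusted p = 0.0869 and 0.0916) and with any 1 array of set B left out (0.0515 to 0.211). Ciita, the master regulator of MHC class II genes, was lower with -0.98 and Cd83, which is induced together with CD86 on maturing dendritic cells, with -0.54, the call of Cd83 being lost without FDC-D replicate 2 (adjusted p = 0.0738). Cmtm6, which stabilises PD-L1, and Lrba, which protects CTLA-4 from degradation, did not pass, with -0.20 and -0.13.

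The genes whose values over the arrays were most like those of a member were sought by the root mean square difference of centred log2 values, over 5 arrays of set A or 4 of set B. For Cd28 these were Ighv14-2, Pstpip1 and Myb, at differences of 0.03 to 0.08. For Ctla4 they were Rasa3, Arhgef1 and Ptprcap, and for Icos (set B) Slc37a1, Gapvd1 and Zfp148. For Cd86 (set B) they were Etv5, Stom and Iffo2, at 0.06 to 0.07, for Icosl Fgd2, Chd7 and Atp10d, for Cd274 Hspa12a, Nup98 and Mvb12b, and for Cd276 Cpxm1, Reg1 and Col6a3. With so few arrays this measure mostly finds genes of equal fold change, and it describes these samples only.

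**Figure D4:**
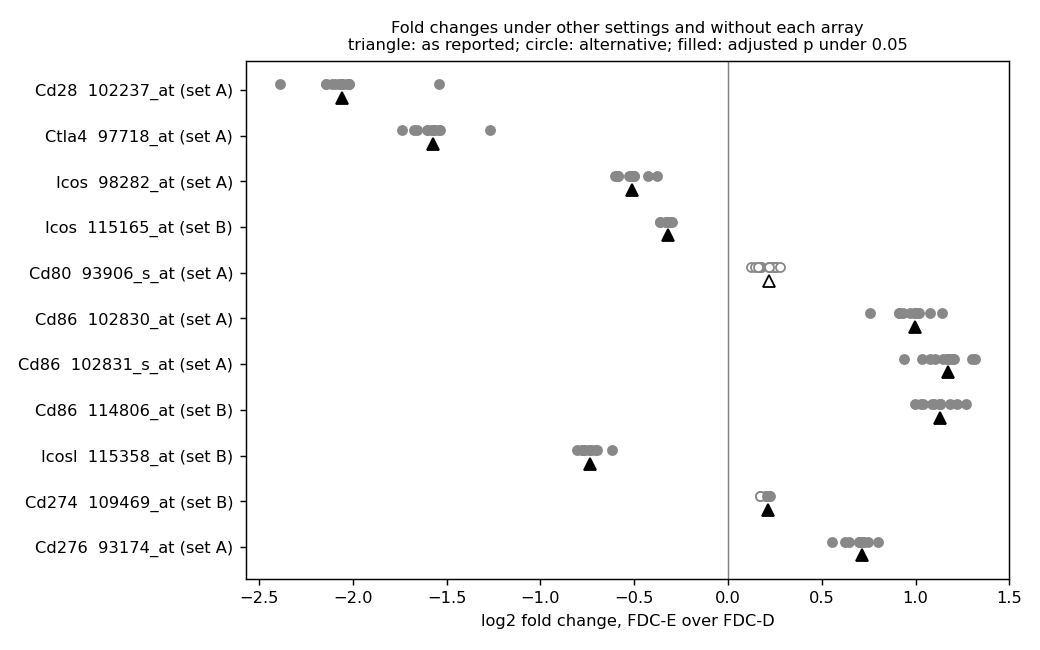
Log2 fold change of the 11 tested member probe sets as reported (triangles) and under each alternative setting or with 1 replicate left out (circles), filled where the adjusted p was under 0.05. No value changed sign, Cd274 has open circles among its alternatives, and Cd80 was filled under 1 of them.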

How the data were processed

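Arrays of 2 fractions of mouse spleen cells were compared within each of 3 array sets. The authors deposited linear intensity values, 1 per probe set and array, with no detection calls; the sources used here state neither their summarisation nor any background correction or scaling. The deposited scale was kept. Probe sets were named through the array annotation, and symbols were brought up to date by Entrez identifier in the RefSeq gene table of GRCm38.p6, which held the identifier of 10817 of 10833 single-symbol probe sets on set A and 10550 of 10581 on set B; 66 array controls per set were left out. Intensities plus the 20th percentile of the set's values (88.6, 81.3 and 52.9 for A, B and C) were log2-transformed and fitted per set with limma 3.58.1 (trended prior variance) in R 4.3.3, two-sided, with Benjamini-Hochberg adjustment within the set. The number of arrays limits the precision.

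Genes counted once were represented by their brightest tested probe set, on the array set where it ranked highest. The members and all lists were chosen with earlier results of these data known. Named were all members, up to 6 passing genes per list and direction by size of log2 fold change, genes that did not pass as examples chosen after their values were seen, and the 3 genes most like each passing member. On simulated data with the levels and spread of the sets, all changes of 4-fold were recovered. Of those of 2-fold 92.8% (A) and 95.7% (B) were recovered, and of those of 1.5-fold 79.1% (A) and 76.5% (B). False calls numbered 11 on set A and 9 on set B. Far fewer probe sets were changed there than passed in the data, so these rates need not hold for the data. Smaller changes, such as those of Cd80, Cd274 and Icos on set B, were not simulated. Pseudocount, filter, scaling, prior, weights, adjustment, replicate block and each replicate were varied.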

Additional observations from a re-analysis of the deposited data

How the results depend on the processing

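Of 146 alternatives over the 11 tested member probe sets, 141 kept their direction and their side of the threshold, 4 ended the call of Cd274 and 1 (array weights) brought Cd80 past it, with a log2 fold change of 0.17 and adjusted p = 0.0473; none changed sign. The log2 fold change ranged from -2.39 to -1.54 for Cd28, -1.74 to -1.27 for Ctla4, 0.76 to 1.32 for Cd86 over its probe sets on set A and 0.56 to 0.80 for Cd276, the ends being set by the pseudocount except at the upper end of Cd86, which was reached without FDC-E replicate 1. With 1 replicate left out, 2 or 3 member genes were called higher and 4 lower, 10 to 18 costimulation list genes higher and 16 to 23 lower, and 2188 to 3699, 2190 to 2799 and 894 to 1321 probe sets passed on sets A, B and C. These fits can leave 1 FDC-D array, or 1 FDC-E array on set B, which is then assumed to vary like the others. Of the passing probe sets 56.3% on set A and 53.3% on set B were higher in FDC-E, against 41.3% and 46.5% after quantile normalization and 42.5% and 44.2% when arrays were scaled to the median array; the medians of the fold changes moved by less than 0.1. The replicate number as a block was fitted on sets A and C only, since set B leaves no residual degrees of freedom. In this replicate block fit 864 probe sets passed on set C, against 1337 without it. The blocked fit changed no call of a member probe set on set A but ended those of Itgal and Bcl2l1 among the named list genes. Calls on set B, such as those of Icosl and Cd274, could not be checked in this way. Same-numbered samples had correlated deviations of 0.03 and 0.06 on set A and -0.31 and -0.15 on set C, so the numbers were not taken as pairs. Of 436 alternatives for the 32 named costimulation list genes, 29 ended a call, for 9 of the genes, and 0 reversed one. Without detection calls, signal cannot be set against background for single probe sets.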
